A study of Mus musculus with 2 samples.

Results

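The integrated stress response and the amino acid metabolism it controls were followed through 37 genes in peritoneal macrophages, the phagocytes of the abdominal cavity, that lacked or carried Lgmn. The genes were taken by name, as the listed kinases of the translation factor eIF2, the transcription factor Atf4 and its targets, amino acid synthesis enzymes and amino acid transporters. All 37 were among the 15605 genes listed in the deposited files, and 36 were listed in both. The Lgmn knockout (lgmn-/-) library and the wild type library both came from C57BL/6 mice of 6 to 8 weeks, and in both the macrophages had been co-cultured for 4 days with EO771, a mouse mammary carcinoma line. Lgmn encodes legumain, a lysosomal protease that cuts after asparagine. The labels name no transgene or Cre, no deleted exon and no number of mice behind a library, nor do they say whether a membrane kept the carcinoma cells apart. Since there was 1 library per genotype, differences could not be set against replicates, and no p-values are given. "Higher" and "lower" describe these 2 libraries.

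In the integrated stress response, one of several kinases phosphorylates eIF2 and so slows protein synthesis as a whole, while a few messages such as Atf4 are translated more. ATF4 protein then switches on genes for amino acid synthesis, amino acid uptake and the charging of transfer RNAs, usually as a dimer with a C/EBP protein. GCN2, one of the kinases, senses uncharged transfer RNA and thus a shortage of amino acids, and PERK, another, senses misfolded protein in the endoplasmic reticulum. Because Atf4 is controlled largely at translation, its mRNA level does not give the level of the protein.

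The knockout library held 11740202 estimated counts and the wild type library 11885784. Lgmn had 426 counts (FPKM 19.2) in the knockout library and 23550 counts (FPKM 1050) in the wild type library, in the order of their labels. Counts were scaled with TMM factors, and ratios are of knockout over wild type, with 1 scaled count added to both. The interval of a ratio is the 95% exact (Clopper-Pearson) interval of the knockout share of the 2 counts. It covers counting error only, and not variation between mice. Reads that carry no molecular identifier may be copies of 1 molecule. A gene was tested for the size of its ratio when either library held 50 or more of its estimated counts, which left 9498 genes with a median log2 ratio of 0.00. The ratio moved with transcript length across all genes, and a smooth trend through it was -0.31 at 1000 bases, -0.14 at 2000 bases and 0.41 at 5000 bases. The main results are also given with this trend removed ("length-adjusted"). The cells carried macrophage markers: Cd68 had an FPKM of 3760 and 5170 in the knockout and wild type libraries, and Lyz2 12500 and 13200. Cd163, a marker of some resident macrophages, had 1 and 3 counts. In bulk RNA, fewer cells of a type and less RNA per cell cannot be told apart.

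Asparagine synthetase stood out among the 37 genes. Asns was at 28 estimated counts in the knockout library and 120 in the wild type library, 4.85-fold lower (3.29 to 7.83), and Psat1, of serine synthesis, was 2.06-fold lower (1.54 to 2.83). Ppp1r15b, a subunit that directs a phosphatase to eIF2, was 2.20-fold higher (1.89 to 2.57). The other 25 of the 28 members with enough counts lay within 2-fold. The 2 lower members were 7.14% of those tested, where 1.74% of all genes tested were at least 2-fold lower. The 1 higher member was 3.57%, where 6.05% of all genes were at least 2-fold higher. The median log2 ratio of the 28 was -0.33, and 19 of them, 67.9%, lay below 0, against 50% of all genes tested. Their intervals lay wholly below 0 for 15, wholly above 0 for 4 and held 0 for 9. The same count was not made over all genes tested, so these numbers describe the 28 only. Asns and Aldh18a1 reached 50 counts in the wild type library only, so they entered through the library in which they were higher. The other 26 had at least 50 counts in both.

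The promoter of Asns holds the core of the element that ATF4 dimers are known to bind, and it is shown because this gene differed most among the 28. The core searched was TGATGNAA, of the C/EBP-ATF response element, on both strands. In the RefSeq promoter table (GRCm38.p6, 250 bases before to 50 after each annotated start), 32 of the 37 members had an entry, and 9 of these, 28.1%, held the core, against 4.51% of the 27025 genes of the table. Members were listed partly as known ATF4 targets, so this share describes the list. The stretch of Asns from 150 bases before its start to the last base before it (chr6:7693210-7693359, minus strand) is printed 5′ to 3′ with the core in capitals, which begins 23 bases before the start.
Asns: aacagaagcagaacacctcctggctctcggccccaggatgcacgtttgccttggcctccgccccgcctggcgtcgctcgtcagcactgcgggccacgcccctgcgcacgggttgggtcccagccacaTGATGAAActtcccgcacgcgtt

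In 6 further members the core lay wholly before the start. Their windows of 30 bases are given along the gene's strand, with capitals for the core or its reverse complement, so that they can be set beside Asns.
Nupr1 (chr7:126625562-126625591, minus strand): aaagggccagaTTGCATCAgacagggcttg
Pck2 (chr14:55540152-55540181, plus strand): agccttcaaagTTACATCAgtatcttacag
Got1 (chr19:43524689-43524718, minus strand): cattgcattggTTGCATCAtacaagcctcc
Pycr1 (chr11:120643833-120643862, minus strand): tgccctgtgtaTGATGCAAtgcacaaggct
Vldlr (chr19:27216809-27216838, plus strand): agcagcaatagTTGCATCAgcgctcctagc
Chac1 (chr2:119351038-119351067, plus strand): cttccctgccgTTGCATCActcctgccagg

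Trib3 and Slc1a4 held the core across or after the start, and their windows are not printed. Of the 9 genes with the core, 5 had enough counts, with log2 ratios of -2.28 for Asns, -0.76 for Pck2, -0.68 for Nupr1, -0.42 for Got1 and -0.10 for Trib3. The gene with the lowest ratio of all 28 held the core, while Psat1, the next, did not hold it in either of its annotated promoters. Ppp1r15b, the higher member, had no promoter entry and was not searched. A link between the core and the ratios was not tested. A second motif, TGACGTCA, the cAMP response element, was held by 1 of the 32 members, Ppp1r15a, and by 2.03% of the genes of the table. A match is a description of the letters only.

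**Figure D1:**
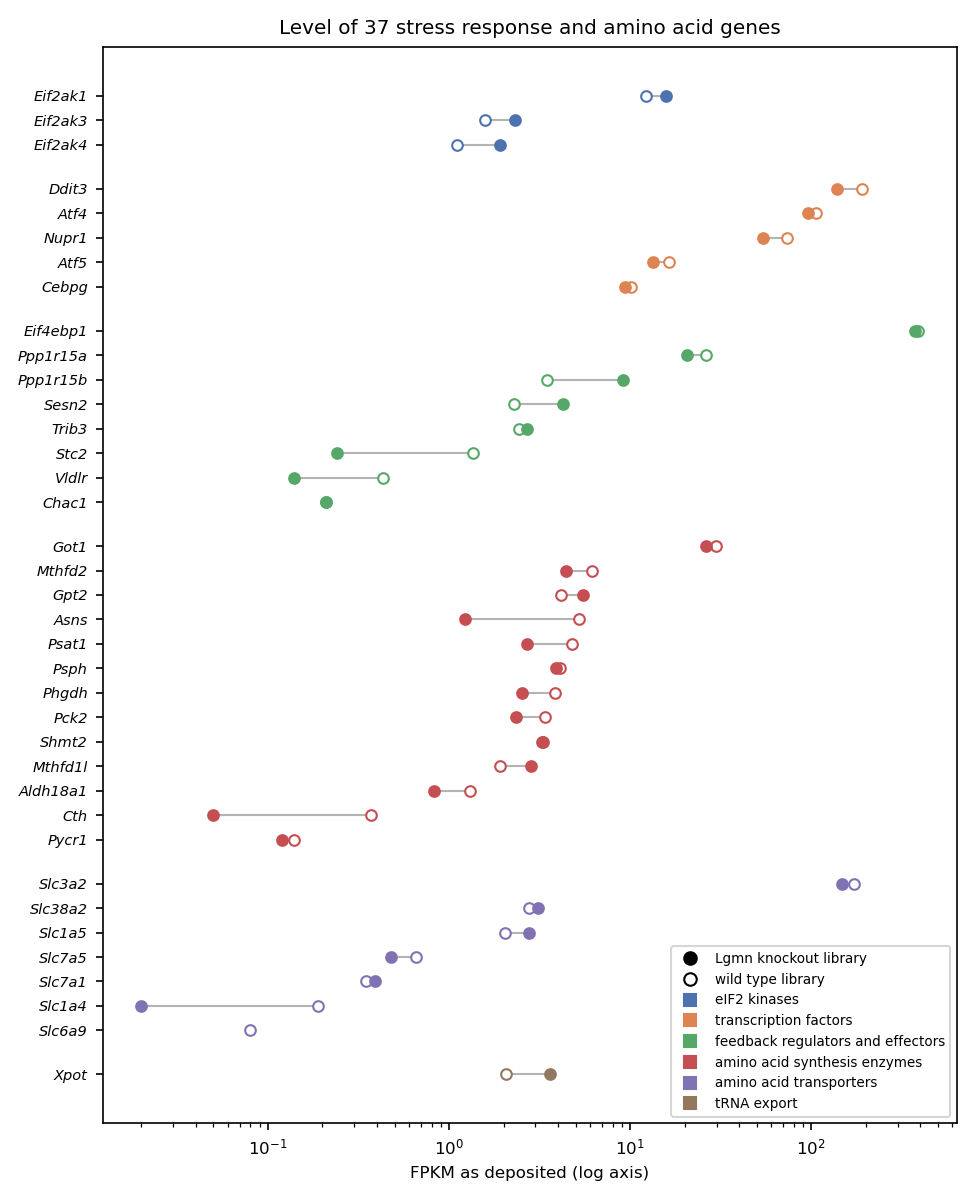
FPKM of each of the 37 genes on a log axis, with filled circles for the Lgmn knockout library and open circles for the wild type library, grouped by role. Ddit3, Atf4, Nupr1, Eif4ebp1 and Slc3a2 lie to the right of the 13 synthesis enzymes, and Asns is at 1.23 in the knockout library and 5.19 in the wild type library; Slc6a9 has no filled circle because it was not listed in the knockout file.

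The kinases that start the response were expressed in the same order in both libraries. Eif2ak1, which encodes the haem-regulated kinase HRI, stood at 15.8 FPKM in the knockout library and 12.3 FPKM in the wild type library. Eif2ak3, for PERK, was at 2.31 and 1.57 FPKM in the same order, and Eif2ak4, for GCN2, at 1.92 and 1.11. The order is by FPKM, which is per transcript length. In estimated counts Eif2ak1 had 528 in the knockout library and 416 in the wild type library, a log2 ratio of 0.12 (-0.07 to 0.31). Eif2ak3 had 125 and 86 counts, a log2 ratio of 0.32 (-0.09 to 0.73), and Eif2ak4 had 120 and 70, a log2 ratio of 0.55 (0.12 to 1.0). None of the 3 passed 2-fold, and only the interval of Eif2ak4 lay above 0. Eif2ak3 and Eif2ak4 have long transcripts, of 4519 and 5197 bases, and the length-adjusted log2 ratios of the 3 kinases were 0.12, -0.01 and 0.11.

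The fourth eIF2 kinase, Eif2ak2 or PKR, which binds double-stranded RNA and is induced by interferon, was listed with the cofactors of GCN2. It had 672.65 estimated counts in the knockout library and 366.06 in the wild type library, a log2 ratio of 0.66 (0.47 to 0.85). Gcn1, which GCN2 needs for its activation, had 147 and 55 counts and a log2 ratio of 1.18 (0.74 to 1.67), and Impact, an inhibitor of GCN2 that binds GCN1, had 408 and 202 counts and a log2 ratio of 0.79 (0.55 to 1.04). All 3 were higher in the knockout library, 1 of them past 2-fold, where 6.05% of all genes tested were at least 2-fold higher. Length adjustment gave 0.36 for Eif2ak2, 0.66 for Impact and 0.30 for Gcn1, whose transcript is 8546 bases long, so that none passed 2-fold. With library totals 2 of the 3 were at least 2-fold higher, where 10.9% of all genes tested were. Of the 8 genes for subunits of eIF2 and of its exchange factor eIF2B, 0 passed 2-fold, 6 lay below 0 and the median log2 ratio was -0.40 (-0.25 length-adjusted). With library totals or deposited FPKM the median was -0.16, and 5 lay below 0. Eif2s2, Eif2s1 and Eif2b3 had the largest ratios, with log2 values of -0.64, -0.57 and -0.47.

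The transcription factors had log2 ratios below 0, all within 2-fold. Ddit3, for CHOP, a factor tied to cell death under lasting stress, had 1421 counts in the knockout library and 1981 in the wild type library, at an FPKM of 139 and 191. Its log2 ratio was -0.70 (-0.80 to -0.60). Atf4 had 1854 and 2108 counts in the same order, an FPKM of 96.4 and 106, and a log2 ratio of -0.41 (-0.50 to -0.32). Nupr1, a small stress-induced chromatin protein, had 394 and 541 counts and a log2 ratio of -0.68 (-0.87 to -0.49). Atf5, a factor of the mitochondrial stress response in mammals, had 283 and 348 counts and -0.52 (-0.75 to -0.29), and Cebpg, a C/EBP partner of ATF4, had 525.86 and 575.87 counts and -0.35 (-0.53 to -0.18).
All 5 lay below 0 and within 2-fold, with a median of -0.52. They stayed below 0 with library totals or deposited FPKM in place of TMM factors and with the length trend removed, which gave a median of -0.33. The median was -0.28 with library totals or deposited FPKM, and totals put Atf4 at -0.17 and Cebpg at -0.11. Nupr1 and Ddit3 have short transcripts, of 639 and 885 bases, and length adjustment brought them to -0.29 and -0.37. Cebpg, at 4718 bases, moved the other way, to -0.71.

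**Figure D2:**
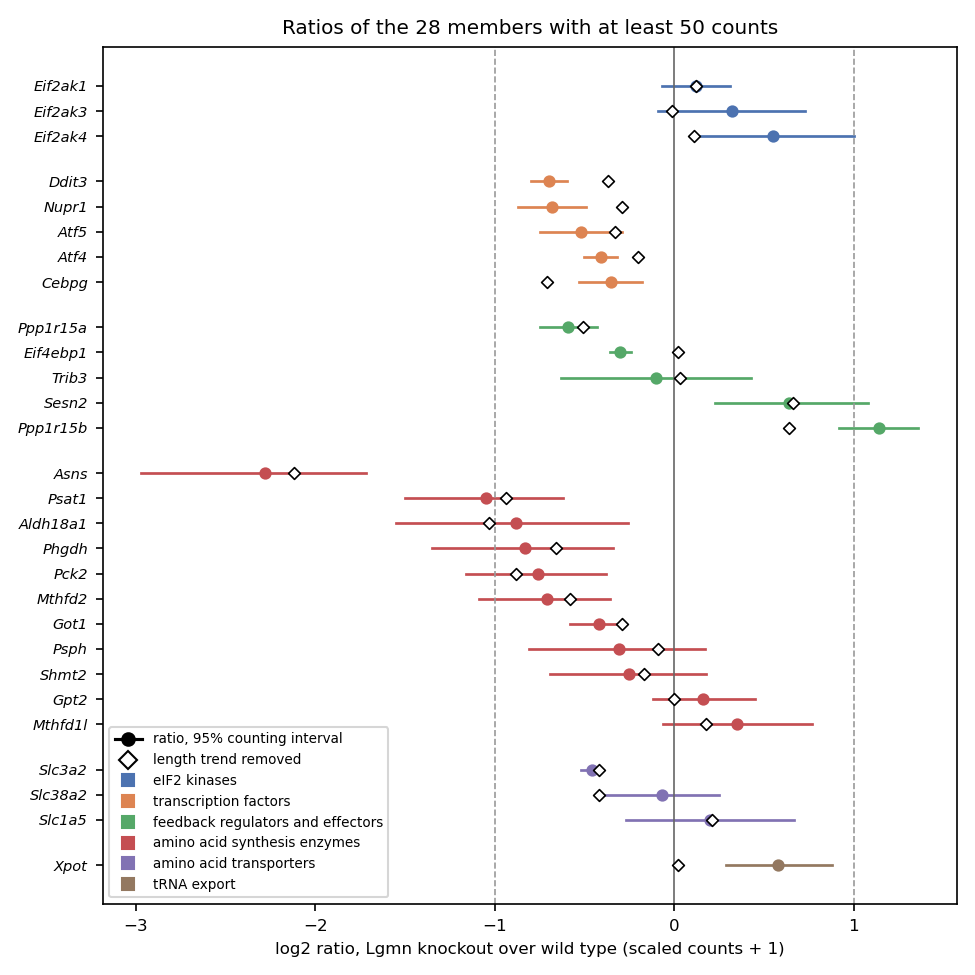
Log2 ratio of knockout over wild type for the 28 genes with at least 50 counts, by role, with circles for the ratio, bars for its 95% counting interval and open diamonds for the length-adjusted ratio. Dashed lines mark 2-fold; Asns at -2.28 and Psat1 at -1.05 lie left of the lower line, Ppp1r15b at 1.14 lies right of the upper one, and its diamond, at 0.64, lies inside.

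The 2 eIF2 phosphatase subunits differed in opposite directions. Ppp1r15b, the constitutive subunit (chromosome 1, 133131166 to 133139800), had 609 counts (FPKM 9.10) in the knockout library and 237 (FPKM 3.49) in the wild type library. Ppp1r15a, or GADD34, the subunit induced by the response as negative feedback, had 576 counts (FPKM 20.7) in the knockout library and 744 (FPKM 26.4) in the wild type library, a log2 ratio of -0.59 (-0.75 to -0.43). By FPKM, Ppp1r15a was the more abundant of the pair in both libraries. The directions were the same with library totals, deposited FPKM and the length trend removed. The length-adjusted log2 ratio of Ppp1r15b was 0.64, within 2-fold, and that of Ppp1r15a was -0.51.

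The other feedback genes and effectors showed no common direction. Sesn2, which lowers mTORC1 activity when leucine is short, had 135 counts in the knockout library and 74 in the wild type library, a log2 ratio of 0.64 (0.23 to 1.08) that was 0.66 length-adjusted. Trib3, a pseudokinase that restrains ATF4, had 65 and 60 counts, a log2 ratio of -0.10 (-0.63 to 0.43). Its sign was positive with library totals, deposited FPKM and length adjustment. Eif4ebp1, for the translation repressor 4E-BP1, was the most abundant of the 37 genes, with 374 FPKM in the knockout library and 389 FPKM in the wild type library. Its log2 ratio of -0.30 (-0.36 to -0.24) was 0.02 length-adjusted.
Chac1, which breaks down glutathione and is often used as a sensitive readout of ATF4, was at 4 counts in both libraries. Stc2, a secreted glycoprotein, had 5 counts in the knockout library and 29 in the wild type library, 5.74-fold lower (2.59 to 22.4). Vldlr, a lipoprotein receptor, had 14 and 43 counts, 3.40-fold lower (1.92 to 7.08). Both were under 50 counts and are not part of the count of lower members.

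Among the synthesis enzymes, 9 of the 11 with enough counts lay below 0, where 50% of all genes tested did, and the median log2 ratio was -0.71. Asns and Psat1, 2 of the 11, were at least 2-fold lower, where 1.74% of all genes tested were. Asns reached 50 counts in the wild type library only. The same 9 lay below 0 with library totals, deposited FPKM and the length trend removed, although Shmt2 was as near to 0 as -0.01 with totals or FPKM, which gave medians of -0.48 and -0.47. Asns (chromosome 6, 7675165 to 7693209), which makes asparagine from aspartate and glutamine, stood at 1.23 FPKM in the knockout library and 5.19 FPKM in the wild type library. By FPKM it ranked 9680 among all genes in the knockout library and 5480 in the wild type library. Set against Atf4 within each library, which needs no scaling between them, the FPKM of Asns was 1.28% of that of Atf4 in the knockout library and 4.88% in the wild type library. Fibroblast markers summed to fewer counts in the knockout library too, 1279 against 2928 in the wild type library. Their part in the ratio of Asns was not tested. Its length-adjusted log2 ratio was -2.12, 4.35-fold lower.

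Phgdh, which commits glycolytic carbon to serine, had 56 counts in the knockout library and 86 in the wild type library, a log2 ratio of -0.83 (-1.35 to -0.34). Psat1, the next enzyme of the route (chromosome 19, 15905123 to 15925059), had 70 and 125 counts, an FPKM of 2.69 and 4.79 and a log2 ratio of -1.05 (-1.50 to -0.62). Psph, the last enzyme, had 71 and 76 counts and a log2 ratio of -0.31 (-0.81 to 0.17). The 3 steps of serine synthesis all lay below 0, and the interval of the last held 0. Psat1 was within 2-fold with the length trend removed, at -0.94, and with library totals or deposited FPKM, at -0.81.
In the mitochondrial one-carbon pathway, Mthfd2 had 109 counts in the knockout library and 154 in the wild type library, a log2 ratio of -0.71 (-1.09 to -0.36). Shmt2, which splits serine, had 89 and 91 counts and a log2 ratio of -0.25 (-0.69 to 0.18). Mthfd1l, which releases formate, had 125 and 84 counts and a log2 ratio of 0.35 (-0.06 to 0.77). The pathway therefore had no common direction, and only the interval of Mthfd2 excluded 0.

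Of the remaining enzymes, Aldh18a1, the first step of proline synthesis, had 35 counts in the knockout library and 56 in the wild type library. Its log2 ratio was -0.88 (-1.55 to -0.26), and -1.03 length-adjusted, past 2-fold. Pck2, the mitochondrial PEP carboxykinase, had 95 and 139 counts and a log2 ratio of -0.76 (-1.16 to -0.38). Got1, the cytosolic aspartate aminotransferase and the most abundant enzyme of the group, had 644 and 742 counts, an FPKM of 26.3 and 29.9 and a log2 ratio of -0.42 (-0.58 to -0.27). Gpt2, the mitochondrial alanine aminotransferase, had 235 and 180 counts and a log2 ratio of 0.16 (-0.12 to 0.45).
Both aminotransferases lay within 2-fold. Cth, of cysteine synthesis, had 1 count in the knockout library and 8 in the wild type library, 5.01-fold lower with a counting interval of 1.25 to 414, and Pycr1, the last step of proline synthesis, had 4.04 and 4.98 counts. With the length trend removed, 2 of the 28 members were at least 2-fold lower, Asns and Aldh18a1, and 0 were higher, against 1.91% and 2.14% of all genes. These 2 lower members reached 50 counts only in the wild type library, in which they were higher. The length-adjusted median of the 28 was -0.24. At a threshold of 1.5-fold, 9 members, 32.1%, were lower and 2, 7.14%, were higher, against 6.39% and 16.4% of all genes. The 9 were Asns, Psat1, Aldh18a1, Phgdh, Pck2, Mthfd2, Ddit3, Nupr1 and Ppp1r15a, and the 2 were Ppp1r15b and Sesn2.

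**Figure D3:**
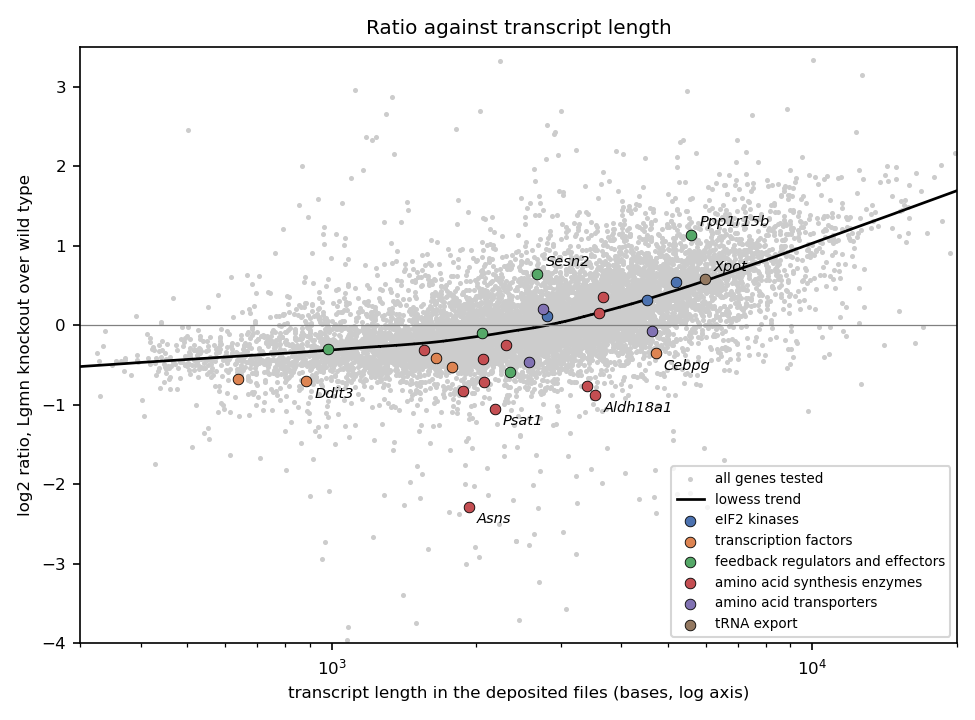
Log2 ratio of knockout over wild type against transcript length, on a log axis, for the 9498 genes tested (grey, 7 of them outside the axes), with the lowess trend in black and the 28 genes in colour by role. Asns lies far below the trend, Sesn2 and Ppp1r15b lie above it, and Xpot and the kinases lie near it.

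The transporters ranged from very abundant to nearly absent. Slc3a2, the heavy chain 4F2hc that carries several amino acid exchangers to the cell surface, had 4531.99 counts in the knockout library and 5347.99 in the wild type library, at an FPKM of 148 and 172. Its log2 ratio was -0.46 (-0.52 to -0.40), and -0.42 length-adjusted. Slc38a2, or SNAT2, which takes up neutral amino acids and is induced by their shortage, had 172 and 155 counts and a log2 ratio of -0.07 (-0.39 to 0.25). Its log2 ratio was 0.17 with library totals, 0.16 with deposited FPKM and -0.42 length-adjusted. Slc1a5, or ASCT2, a glutamine transporter, had 91 and 68 counts and a log2 ratio of 0.20 (-0.27 to 0.67).
None of these 3 passed 2-fold. Slc7a5, the LAT1 light chain that imports leucine, had 20 counts in the knockout library and 28 in the wild type library, and Slc7a1, for arginine and lysine, had 33.07 and 30.88. Slc1a4 had 1 and 9 counts, 5.57-fold lower with a counting interval of 1.45 to 460. Slc6a9, a glycine transporter, was not listed in the knockout file and had 3 counts in the wild type library. Xpot, which exports transfer RNA from the nucleus, had 260 and 149 counts, a log2 ratio of 0.58 (0.29 to 0.88) that was 0.02 length-adjusted, its transcript being 5989 bases long.

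Genes next to these in the pathway were read from lists chosen by function. Among 11 other stress response targets with enough counts, the median log2 ratio was -0.44. Lower by 2-fold or more were 3 of them, where 1.74% of all genes tested were. Higher by as much were 0, where 6.05% of all genes tested were. Gadd45a, a growth arrest gene that p53 also induces, had 509 counts in the knockout library and 1188 in the wild type library and a log2 ratio of -1.44 (-1.60 to -1.29). Gdf15, a secreted stress cytokine, had 240 and 547 counts and -1.41 (-1.63 to -1.19), and Ddit4, an inhibitor of mTORC1, had 68 and 125 counts and -1.09 (-1.55 to -0.66), or -0.88 length-adjusted. Length adjustment also left 3 of the 11 at least 2-fold lower, with Slc7a11, at -1.15, in place of Ddit4, where 1.91% of all genes tested were. Slc7a11, with a transcript of 9227 bases, had 4735.19 and 4656.83 counts and an unadjusted log2 ratio of -0.20 (-0.26 to -0.14). Library totals left 2 of the 11 at least 2-fold lower, where 1.14% of all genes tested were. The median of the 11 was -0.20 with totals or deposited FPKM, with 7 rather than 10 below 0.

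The genes for charging transfer RNAs were read as a cytosolic and a mitochondrial list. Of the 20 cytosolic aminoacyl-tRNA synthetase genes, many of them known ATF4 targets, 0 passed 2-fold, 12 lay below 0 and the median log2 ratio was -0.15 (-0.07 length-adjusted, and 0.09 with library totals or deposited FPKM). The largest ratios were 0.66 for Wars, which interferon gamma induces, -0.61 for Dars and -0.56 for Sars. Of the 10 mitochondrial synthetase genes tested, 0 passed 2-fold, with a median of 0.14. With library totals 1 was at least 2-fold higher, against 10.9% of all genes tested. The median was 0.37 with library totals and 0.35 with deposited FPKM. Their largest were 0.96 for Cars2, which was 1.13 length-adjusted, 0.58 for Lars2 and -0.22 for Tars2. The other arm of the endoplasmic reticulum response, under ATF6 and XBP1, had 0 of 18 genes past 2-fold and a median of -0.16, which was 0.08 with library totals or deposited FPKM. Pdia4, Hyou1 and Dnajb9 were its most different genes, at -0.46, 0.45 and -0.43. The differences between these lists and the synthesis enzymes were not tested.

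Markers of other cells moved between the libraries too, and their part in these results was not tested. Of 8 fibroblast markers tested, 6 were lower by 2-fold or more, where 1.74% of all genes tested were. Of the 8, 1 lay above 0, at 0.28, and the median was -1.85. The 14 listed markers summed to 1279 counts in the knockout library and 2928 in the wild type library. Sparc had 207 and 1104 counts, Col1a2 83 and 314, and Col3a1 17 and 66. Their log2 ratios were -2.63, -2.13 and -2.11, beside -2.28 for Asns, while Lum and Pdgfrb had at most 2 counts in either library. The 7 mesothelial markers summed to 7 counts in the knockout library and 96 in the wild type library. Of the 7, 1 was tested, Krt19, at 4 and 67 counts. The 10 epithelial carcinoma markers summed to 30 and 26 counts, with none tested, Epcam at 2 and 1 count, and Krt14, Cldn3, Cldn4 and Esrp1 not listed in either file.
Markers of T and NK cells were higher in the knockout library. The 12 T and NK cell markers summed to 2315 counts there and 1155 in the wild type library. Klrd1, Klrb1c and Cd3d were the most different, at log2 ratios of 2.01, 1.96 and 1.04. Of the 6 dendritic cell markers, which summed to 135 counts in the knockout library and 53 in the wild type library, 1 was tested, Clec9a, at 74 and 13. Of 11 macrophage markers tested, 1, Mertk, was at least 2-fold higher, at 1.23, where 6.05% of all genes tested were. Csf1r was at 0.96 and Cd68 at -0.70, and the median was -0.11. With library totals the median was 0.12 and 2 markers were at least 2-fold higher, where 10.9% of all genes tested were. Of 9 cell cycle genes tested 0 passed 2-fold, and Mcm5, Mki67 and Cdk1, at 0.96, 0.89 and -0.77, differed most. Their median was 0.15, and library totals gave 0.39 with 2 genes at least 2-fold higher, against 10.9% of all genes tested.

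**Figure D4:**
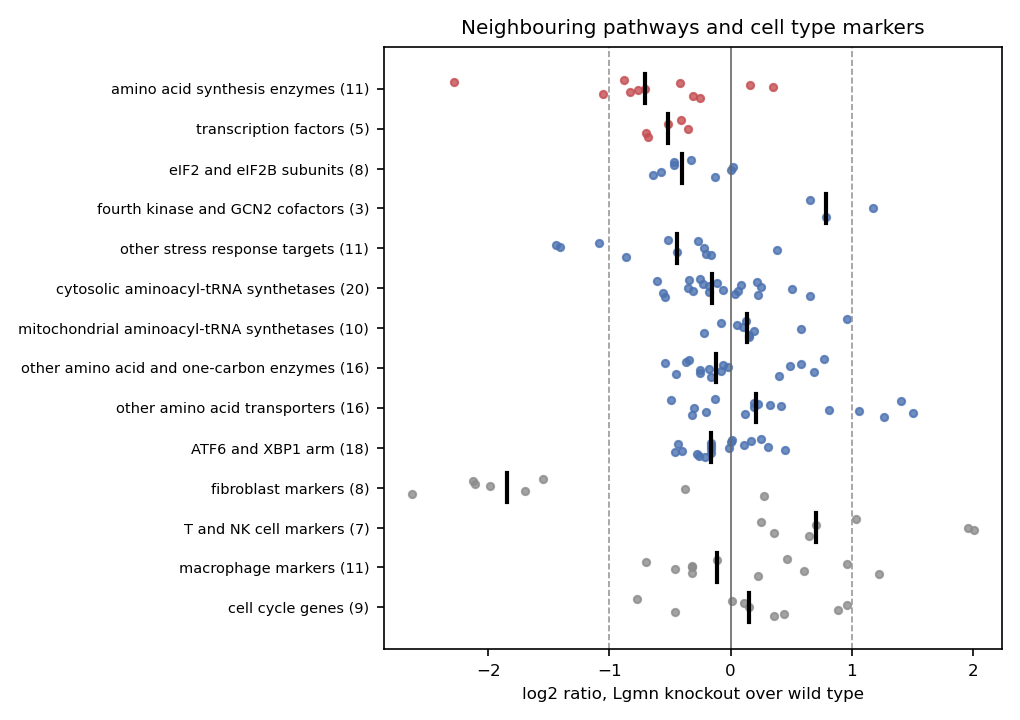
Log2 ratio of knockout over wild type for each tested gene (points) and the median (black bar) of 2 groups of the 37 genes (red), neighbouring pathway lists (blue) and cell type or cell cycle lists (grey), with the number tested in brackets and dashed lines at 2-fold. The synthesis enzymes have a median of -0.71, the cytosolic synthetases one of -0.15 and the fibroblast markers one of -1.85.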

How the data were processed

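Per the labels' protocols, total RNA of 1 knockout and 1 wild type sample was read on a BGISEQ-500, and the genotype label gave the groups. The authors' deposited files hold estimated counts per Entrez gene, not scaled between libraries, and FPKM made by the authors per transcript length and mapped fragments, per the file headers. A transcript length stands beside them as another column deposited by the authors. The submitters' processing notes name RSEM, HISAT2 and Bowtie2 and mm10 as the build, but not what each tool did. No source used here states how strand was handled, and 6 of the 37 genes overlap another listed gene (Eif2ak1, Atf5, Ddit3, Ppp1r15a, Psph and Shmt2), whose reads could be shared. The estimate was whole, within 0.01, for 33 of the 37 genes in both libraries. The lowest FPKM listed was 0.01, and a gene missing from a file was taken as 0 counts.

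Gene identifiers were named through RefSeq's GRCm38.p6 table (the assembly of mm10), which matched 15561 of 15605 identifiers. On rounded counts, edgeR 4.0.16 (R 4.3.3) gave TMM factors of 1.09 for knockout and 0.921 for wild type. The length trend was a lowess curve (statsmodels 0.14.6, span 0.3) through the log2 ratios against log2 length. Intervals used scipy 1.17.1. The alternatives were size factors from DESeq2 1.42.0, library totals, deposited FPKM with 0.1 added, pseudocounts of 0.5 and 5, a count minimum of 10, of 200 or none, the length trend removed and a 1.5-fold threshold. On simulated data with 200 genes changed, 2-fold was passed by the 100 raised and the 100 lowered genes and by 0 of 9109 unchanged ones, with counting error only. The changes set were all larger than 2-fold, in genes with higher mean counts than Asns or Psat1. Recovery near 2-fold or at lower counts was therefore not tested.

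The members, gene lists and alternatives were chosen with earlier results of these data known. Values in full were given for members past 2-fold, for the most abundant member of each role and for the kinases, and the other members got their counts. Of each other list up to 3 genes with the largest ratio were named. Aldh18a1, Slc7a11, Lum, Pdgfrb, Cd163, Lyz2, Epcam, the markers listed at 0 and the genes set beside these were chosen after their values were seen. Calculations used Python 3.11.15.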

Additional observations from a re-analysis of the deposited data

How the results depend on the processing

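DESeq2 size factors and a pseudocount of 0.5 or 5 left 2 members at least 2-fold lower and 1 higher. Library totals and deposited FPKM each left 1 lower, Asns, and put the members' median log2 ratio at -0.10 and -0.09. They moved the median of all genes to 0.24 and 0.23, from which the members' median differed by -0.33, as it did with TMM factors. Over all genes, where 165 were at least 2-fold lower and 575 higher, library totals gave 108 and 1035 and deposited FPKM 102 and 936, a higher share of 90.6% and 90.2% against 77.7%. A minimum of 10 counts gave 4 lower members of 32, adding Stc2 and Vldlr. Of 11876 genes, 435 (3.66%) were then lower and 919 (7.74%) higher. With no minimum there were 7 lower members of 37, adding Cth, Slc1a4 and Slc6a9. Of 15605 genes, 1507 (9.66%) were then lower and 1472 (9.43%) higher. A minimum of 200 counts left 0 lower members of 13, since neither Asns nor Psat1 reaches it. Of 6029 genes, 67 (1.11%) were then lower and 273 (4.53%) higher. Removing the length trend left 0 higher members and 203 higher genes, a higher share of 52.9%. A 1.5-fold threshold gave 9 lower and 2 higher members, and 607 lower and 1562 higher genes. No called member changed sign. Library totals moved 11 of the 28 members' ratios out of their counting interval, deposited FPKM 10 and length adjustment 9, while DESeq2 size factors and the pseudocounts moved 0. No paired analysis was possible because each genotype has 1 library. Depth limits the 9 members under 50 counts, and Asns rests on 28 and 120 counts.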

Other observations

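Several amino acid transporters outside the 37 genes were higher in the knockout library. The median log2 ratio of 16 tested was 0.21. Of the 16, 4 passed 2-fold upward and 0 downward, where 6.05% and 1.74% of all genes tested did. With library totals the median of the 16 was 0.45 and 5 passed upward, against 10.9% of all genes tested. Slc7a2, which imports arginine, had 844.23 counts in the knockout library and 252.98 in the wild type library, a log2 ratio of 1.51 (1.31 to 1.73). Slc36a1, a proton-coupled carrier of lysosomes, had 252.24 and 81.14 counts and 1.41 (1.05 to 1.80). Slc7a8, the LAT2 light chain, had 1156 and 410 counts and 1.27 (1.11 to 1.44). Length adjustment gave 0.73, 0.95 and 1.03 for these 3 genes, so that 1 of the 16 was then at least 2-fold higher, where 2.14% of all genes tested were. The length-adjusted median of the 16 was 0.07, with 9 above 0 and 7 below. Length adjustment put 2 of the 16 at least 2-fold lower, where 1.91% of all genes tested were. These were Slc7a11 at -1.15 and Slc38a9 at -1.22. Unadjusted, these were at -0.20 and -0.30, with transcripts of 9227 and 8913 bases. Slc38a9 had 241 counts in the knockout library and 255 in the wild type library. Among the light chains that pair with Slc3a2, Slc7a11 was the most abundant, at an FPKM of 42.7 in the knockout library and 41.4 in the wild type library. Slc7a8 followed at 23.8 and 8.32, Slc7a7 at 6.11 and 6.46, Slc7a6 at 1.28 and 1.0, and Slc7a5 at 0.48 and 0.66.

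Of 16 other amino acid and one-carbon enzymes tested, 0 passed 2-fold, with a median of -0.12 that was 0.12 with library totals or deposited FPKM. With totals 1 was at least 2-fold higher, against 10.9% of all genes tested. Arg2, Mtr and Ass1 had the largest ratios, at 0.77, 0.69 and 0.58, and Arg2 was 1.01 length-adjusted. Asrgl1, which breaks down asparagine, had 105 counts in the knockout library and 131 in the wild type library, and Aspg, another asparaginase, was not listed in either file. Aldh1l2, a mitochondrial folate enzyme, had 7 and 31 counts, 4.61-fold lower (2.23 to 13.9), and Shmt1, a cytosolic one, had 14 and 3 counts, a log2 ratio of 1.72 (0.16 to 4.44). Both were under the minimum of 50. Asrgl1, Aspg, Shmt1 and Aldh1l2 were chosen after their values were seen.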
